A study of Mus musculus with 20 samples.

Results

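The genes described are 6 whose transcripts rise when neurons are active: Npas4, Arc, Bdnf, Nptx2, Homer1 and Inhba. They were taken by name, through their Ensembl identifiers, from a table of 19722 genes measured after 4 h and a table of 51912 gene identifiers measured after 24 h. All 6 were present in both tables, and all 6 were abundant enough to be tested in both. The samples were cultured forebrain slices from mouse pups at postnatal day 4, all exposed to 5% horse serum, with RNA sequenced in bulk in 20 libraries. After 4 h there were 3 libraries labelled knockout (KO) and 3 wild-type (WT) libraries. After 24 h there were 4 KO and 3 heterozygous (Het) libraries from females, and 4 KO and 3 Het libraries from males. The gene deleted is Tnfaip6, which encodes the secreted hyaluronan-binding protein TSG-6, written TSG-6-/- in the series' design text. The control was therefore WT at the early time and Het at the late time. Slices without serum were not analysed here and no firing was recorded in these data, so the values below are levels in serum and not responses to a measured activity.

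Neuronal firing lets calcium into the cell, and calcium-dependent kinases then act on transcription factors such as CREB, SRF and MEF2 that are already bound at their target genes. A first wave of genes for transcription factors is switched on within minutes, and genes whose proteins act at synapses follow. Npas4 encodes a neuron-restricted transcription factor of the first wave and is one of the few that respond to calcium far more than to growth factors. For the other members, the actions named here lie outside the nucleus. Arc binds the endocytic machinery that removes AMPA receptors from synapses, Bdnf encodes a secreted neurotrophin, and Nptx2 a secreted pentraxin that gathers AMPA receptors. Homer1 encodes a scaffold of metabotropic glutamate receptors, with a short activity-induced form, Homer1a, that uncouples that scaffold. Inhba encodes the subunit of activin A.

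Npas4 lies on chromosome 19 at 4984355 to 4990316, minus strand, and Arc on chromosome 15 at 74669083 to 74672570, minus strand, in the GENCODE annotation of GRCm38. Bdnf lies on chromosome 2 at 109674700 to 109727007 and Nptx2 on chromosome 5 at 144545902 to 144557478, both on the plus strand. Homer1 (93299635 to 93405129) and Inhba (16011851 to 16031621) lie on the plus strand of chromosome 13. All values are totals over the exons of a gene, so Homer1a and the promoter-specific forms of Bdnf were not separated from the other transcripts. The antisense gene Gm45346 overlaps exons of Bdnf and had 0 counts in every 24 h library. The gene B230303A05Rik lies inside Inhba on the opposite strand without sharing an exon, and its own reads numbered 28 to 68 per library after 4 h, and its counts 34 to 92 after 24 h. The sources used here do not give the strand setting of the counting.

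The start regions of 4 of the members could be read from the RefSeq promoter windows of build GRCm38.p6, which run from 250 bases before to 50 bases after an annotated start. Npas4 and Inhba have 1 window each, Homer1 has 2 and Bdnf has 7. They were searched for the core of the cyclic AMP response element that CREB binds, TGACG or its reverse complement CGTCA. It was present in 3 of the 11 windows, against 20.9% of 32544 windows of all genes. The 3 windows are shown because they hold that core, with the matches in capitals.
Npas4, chr19:4989922-4990221, minus strand: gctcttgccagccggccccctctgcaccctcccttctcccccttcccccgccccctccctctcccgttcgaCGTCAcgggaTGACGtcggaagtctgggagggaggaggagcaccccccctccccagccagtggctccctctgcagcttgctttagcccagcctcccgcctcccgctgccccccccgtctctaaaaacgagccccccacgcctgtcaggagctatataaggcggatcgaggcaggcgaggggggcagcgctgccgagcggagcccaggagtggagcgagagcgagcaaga
Homer1, chr13:93303507-93303806, plus strand: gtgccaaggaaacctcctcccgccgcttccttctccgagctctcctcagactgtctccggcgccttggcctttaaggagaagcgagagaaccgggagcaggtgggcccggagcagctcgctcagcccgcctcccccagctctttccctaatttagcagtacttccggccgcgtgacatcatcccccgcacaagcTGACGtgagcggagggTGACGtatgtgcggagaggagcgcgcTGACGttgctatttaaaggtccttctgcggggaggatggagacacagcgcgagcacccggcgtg
Bdnf, chr2:109692186-109692485, plus strand: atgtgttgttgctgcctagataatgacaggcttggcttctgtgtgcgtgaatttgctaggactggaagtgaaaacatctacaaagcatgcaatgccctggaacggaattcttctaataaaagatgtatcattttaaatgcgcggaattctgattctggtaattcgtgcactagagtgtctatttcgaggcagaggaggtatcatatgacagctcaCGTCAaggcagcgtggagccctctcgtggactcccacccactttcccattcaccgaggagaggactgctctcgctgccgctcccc
The Npas4 window holds 2 matches on opposite strands, beginning 179 and 169 bases before the start, and 5.04% of all windows hold 2 or more. The Homer1 window holds 3 matches in the same orientation, beginning 56, 40 and 14 bases before the start, and 1.04% of all windows hold 3 or more. The Bdnf window holds 1, beginning 35 bases before the start. The full element TGACGTCA was in none of the 11 windows and in 1.80% of all windows. A CArG box, the sequence that SRF binds, was likewise in 0 of 11 and in 1.64% of all. The AP-1 motif TGANTCA was in 1 Bdnf window and in 7.79% of all. Both strands were searched, and a match is a match of letters only.

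Library totals were 11411532 to 15030171 reads in the 4 h table, and in the 24 h table they were 8482933 to 18051300 counts. Reads of the targeted gene did not show the label: Tnfaip6 had 40.6 to 83.3 normalised reads in KO libraries and 67.2 to 92.6 in WT libraries at 4 h. At 24 h it had 5.08 to 7.96 CPM (counts scaled to the same library total) in KO and 3.43 to 6.65 CPM in Het libraries. The extent of the deletion is unstated, so every genotype direction below rests on the labels. The library labelled KO female 2 held 152 CPM of Y-linked reads and 0 of Xist, against its label. Het male 1 held 10.6 CPM of Xist beside 145 CPM of Y-linked reads, and every other 24 h library labelled male at most 0.55 CPM of Xist. Xist marked 1 KO and 1 WT library at 4 h, both numbered 1. KO female 1, KO female 3 and KO male 3 held 450.4 to 2669 CPM of Ttr, a choroid plexus transcript, and every other library at most 0.806 CPM. All 10 pan-neuronal markers were detected in every library, at a summed 5739 to 7441 CPM. Whether libraries sharing a group came from different pups is unstated, and the p-values therefore reflect library-to-library spread alone, technical spread included.

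The first comparison asked what separated KO from WT slices once serum had been present for 4 h. Npas4 and Arc were lower in every KO library than in every WT library, and neither passed the unblocked limma test of all libraries. Between libraries with the same number in their titles, Npas4 in KO was between 0.49 and 0.52 of its WT level. No label calls those libraries pairs. Bdnf was lower in KO at each number, by a smaller and less even margin. For Nptx2, Homer1 and Inhba the 2 genotypes overlapped.

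Npas4 had 1304, 1223 and 708 normalised reads in KO libraries 1, 2 and 3, against 2654, 2438 and 1362 in WT libraries 1, 2 and 3. Normalised reads are read counts divided by the size factor of the library. Every KO library was below every WT library, and the library numbered 3 was the lowest of its group in both genotypes. The means were 1079 ± 323 in KO and 2151 ± 692 in WT slices (SD, n = 3 each), a log2 fold change of -0.99 ± 0.23 (SE), with fold changes here on the log2(value + 1) scale. With the groups compared without regard to the numbers, limma gave an adjusted p of 0.129, and the exact two-sided permutation test gave p = 0.1, the smallest that 20 arrangements allow. Same-numbered libraries did deviate together across all genes, with correlations of 0.264, 0.140 and 0.175. The numbers come from the sample titles, and no label calls the libraries pairs or says what a number shares. The 2 libraries numbered 1 were those with Xist reads. A block by number was thus chosen from the same values that it was then used to test. With the number as a block, limma gave the same fold change with an SE of 0.06 and an adjusted p of 0.000202, the smallest of 15181 genes in that fit. The KO over WT ratios behind it were 0.49 for the libraries numbered 1, 0.50 for those numbered 2 and 0.52 for those numbered 3. An exact sign-flip test of the 3 pairs cannot go below p = 0.25, which is what it gave.

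**Figure D1:**
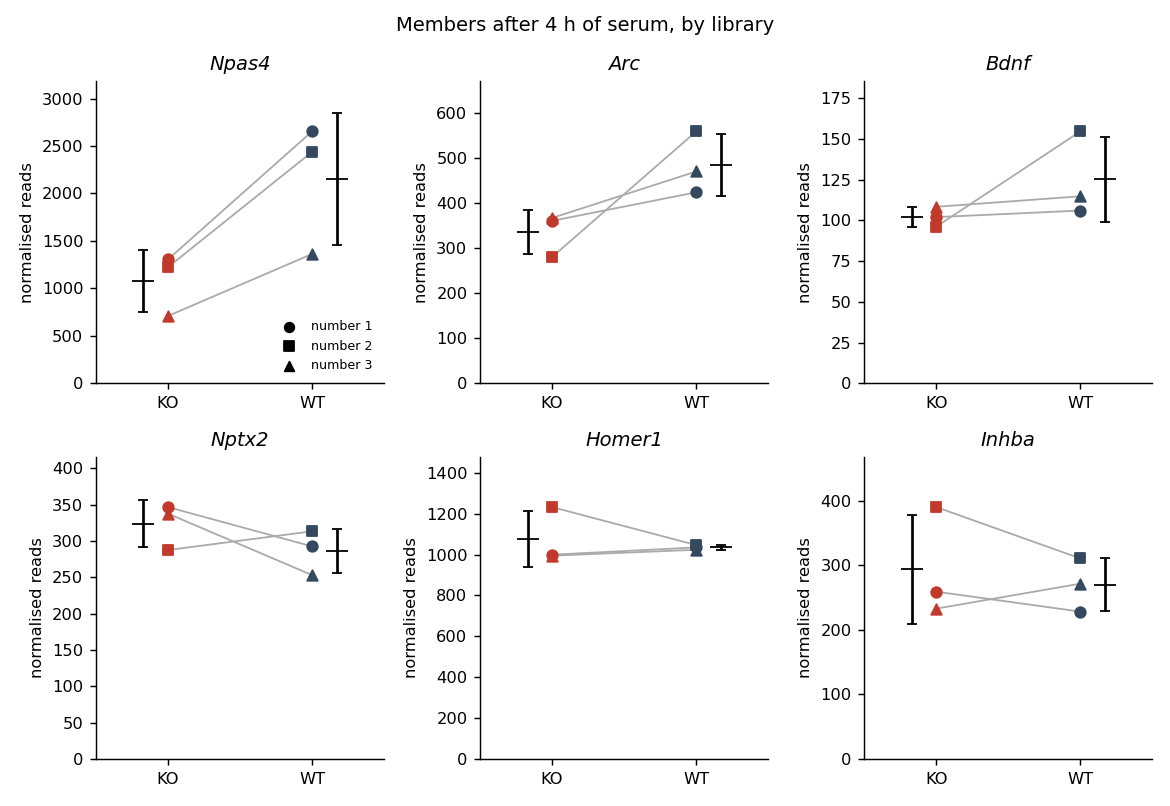
Normalised reads (vertical axes, from 0) of each gene in the 3 KO libraries (red, left) and the 3 WT libraries (dark, right) after 4 h of serum. The shape gives the replicate number, grey lines join libraries of the same number, and the black bars give the mean ± SD. The 3 Npas4 lines climb together by nearly the same factor, and for Npas4 and Arc every KO point lies below every WT point.

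Whether Npas4 passed the test depended on the design. The blocked fit called 38 of 15181 genes (0.25%), 27 of them lower in KO slices (0.178%), and Npas4 was the 1 member among them. Without the block, 7 genes were called (0.0461%), none of them a member. Unadjusted, 2 members, Npas4 and Arc, had a limma p under 0.05, as did 2110 of all 15181 genes. Blocked fits of the reads recovered from the table gave Npas4 an adjusted p of 0.000287 with edgeR and 6.7e-22 with DESeq2. Leaving out both libraries of 1 number in turn from the blocked limma fit gave adjusted p-values of 0.000302, 1.4e-05 and 0.0007. Those fits had few libraries left for a gene's own spread, leaned on the spread borrowed from all genes, and reused the block chosen from these values. Without the block, leaving out KO library 2 also put Npas4 past the threshold (log2 fold change -1.10, limma adjusted p = 0.0261). Over the 20 alternatives at 4 h, blocked or not, the adjusted p lay between 6.7e-22 and 0.401.

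Arc had 361, 281 and 367 normalised reads in KO libraries 1, 2 and 3, against 424, 559.7 and 471 in WT libraries 1, 2 and 3. The groups did not overlap, and KO library 2 was the lowest of its group while its WT partner was the highest of the other. The means were 336 ± 48.4 in KO and 485 ± 68.8 in WT slices (SD, n = 3 each). The log2 fold change was -0.53 ± 0.13, with a limma adjusted p of 0.131, and of 0.133 with the block. The pair ratios spread more widely than those of Npas4, at 0.85, 0.50 and 0.78. DESeq2 on the recovered reads put Arc past the threshold (adjusted p = 0.0159) in a fit that called 161 genes, and the range over the 20 alternatives was 0.0159 to 0.328. Npas4 and Arc were the 2 of 6 members whose groups did not overlap with KO lower, a pattern found in 8.88% of all genes tested. No member had groups apart with KO higher, against 10.1% of all genes.

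Bdnf, the member with the fewest reads, had 102, 96.2 and 108 normalised reads in KO libraries 1, 2 and 3, against 106, 155 and 115 in WT libraries 1, 2 and 3. The groups overlapped, since KO library 3 exceeded WT library 1, although each KO library was below its partner. The log2 fold change of -0.27 ± 0.17 did not pass the test (limma adjusted p = 0.494), and it was -0.11 without WT library 2. A ratio below 1 in all 3 pairs, as seen for Npas4, Arc and Bdnf, occurred in 19.3% of all genes. Per library 93 to 157 reads stood behind Bdnf at 4 h, so its relative counting error was the widest of the 6.

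The other 3 members had overlapping groups, with ratios of KO to WT means of 1.13 for Nptx2, 1.04 for Homer1 and 1.09 for Inhba. Nptx2 had 347, 288 and 338 normalised reads in KO libraries 1, 2 and 3, against 293, 313 and 253 in WT libraries 1, 2 and 3, with KO library 2 inside the WT range. Homer1 had 999, 1232 and 995 normalised reads in KO and 1035, 1046 and 1023 in WT libraries, so KO library 2 stood above the WT range and the other 2 just below it. Inhba had 259, 389.9 and 233 normalised reads in KO and 228, 310.4 and 271 in WT libraries, again with KO library 2 the highest. The log2 fold changes were 0.18 ± 0.12 for Nptx2, 0.05 ± 0.09 for Homer1 and 0.10 ± 0.17 for Inhba, with limma adjusted p-values of 0.521, 0.848 and 0.843. The exact permutation test gave 0.3 for Nptx2, 1 for Homer1 and 0.8 for Inhba.

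Among 13 other inducible transcription factors of the first wave, 3 were lower past the threshold in KO slices and 12 had a log2 fold change below 0, with a median of -0.49. Over all genes tested 5 of 15181 were called lower, 49.4% were below 0 and the median was 0.002. The lists were chosen with earlier results of these data known. Their genes were measured in the same libraries, so a count of genes is not a count of independent results. The 3 were Fos, the partner of Jun proteins in AP-1 (-0.81 ± 0.11, limma adjusted p = 0.0161), the nuclear receptor Nr4a1 (-0.88 ± 0.11, 0.0128) and the zinc finger factor Egr1 (-0.49 ± 0.07, 0.0161). With the block, which was chosen from these same values, there were 6, Fosb, Junb and Nr4a3 being added, against 27 called lower among all genes tested. KO over WT was 0.51, 0.46 and 0.52 for Fosb in the pairs numbered 1, 2 and 3, and 0.55, 0.58 and 0.58 for Fos. Egr3 was the exception to the direction, at 1.30, 1.05 and 1.29.

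Other activity-induced effector genes, 26 besides the members, had a median log2 fold change of -0.20, with 21 below 0 and 0 past the threshold by limma with or without the block. The 3 with the smallest p were the phosphatase Dusp1 (-0.50 ± 0.09, adjusted p = 0.090), the stress-induced protein Gadd45b (-0.60 ± 0.12, 0.0909) and the antiproliferative factor Btg2 (-0.52 ± 0.10, 0.0909). The 23 genes of the route from calcium entry to CREB, SRF and MEF2 leaned the other way, with 18 above 0, a median of 0.14 and 0 past the threshold. Among them Camk4, a nuclear calcium-dependent kinase, had 0.33 ± 0.09 (adjusted p = 0.161), Mef2c 0.23 ± 0.08 (0.24) and Camk2a 0.27 ± 0.10 (0.255). Of 29 genes for receptors and binding partners of the members, 28 were tested, 18 were above 0 and 0 were past the threshold, with a median of 0.06. The smallest p-values there belonged to Shank2, a scaffold that Homer proteins bind (0.28 ± 0.06, 0.107), Nptxr, the membrane receptor of the pentraxin family (0.28 ± 0.07, 0.131), and Acvr1b, an activin receptor (0.23 ± 0.06, 0.166).

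**Figure D2:**
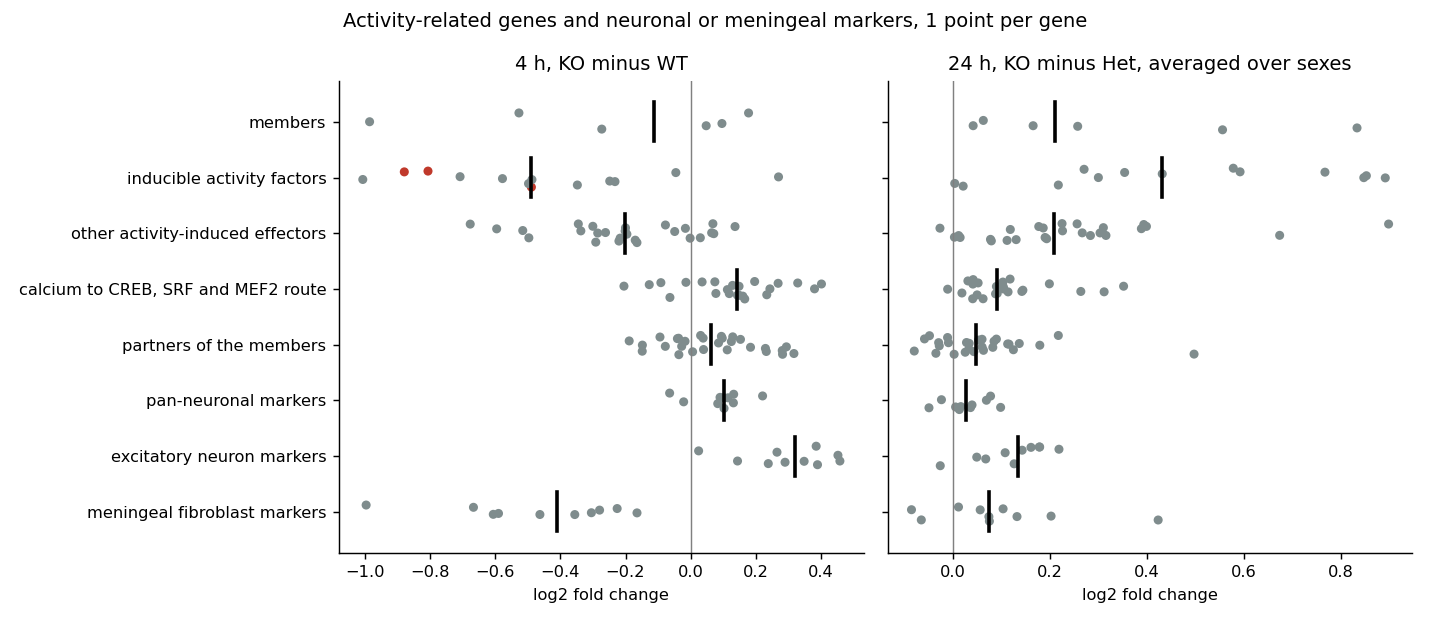
Log2 fold changes (horizontal axes), 1 point per gene and 1 row per gene list, for KO minus WT at 4 h (left panel) and KO minus Het at 24 h averaged over sexes (right panel). Black bars mark the list medians, red points are past the adjusted threshold of 0.05 and grey points are not. At 4 h the inducible factors have a median of -0.49 and the excitatory neuron markers of 0.32. At 24 h the median of the inducible factors is 0.43 and no point is red.

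Several lists of cell type markers lay to 1 side of 0 at 4 h, with no marker past the threshold in the unblocked limma fit, and their part in the values of Npas4 and Arc was not tested. All 10 excitatory neuron markers had a log2 fold change above 0, with a median of 0.32 and a summed level of 1270 to 1372 CPM in KO and 1039 to 1168 CPM in WT libraries. Among them Tbr1 and Slc17a7, both defining genes of cortical excitatory neurons, passed with the block (0.46, adjusted p = 0.0451, and 0.45, 0.0337). The remaining lists are inhibitory and striatal neurons, with 5 of 10 markers below 0, microglia, with 8 of 10 below 0, and choroid plexus, with 3 of 4 tested below 0. Pan-neuronal markers summed to 7225 to 7441 CPM in KO and 6775 to 6961 CPM in WT libraries. Lists of non-neuronal cells were on the other side. Meningeal fibroblast markers were below 0 in 10 of 10 (349.6 to 529 CPM in KO, 479 to 622 CPM in WT), as were endothelial and mural markers (340.2 to 361 CPM in KO, 405 to 471 CPM in WT) and astrocyte markers (1980.4 to 2034 CPM in KO, 2078 to 2449.6 CPM in WT). In such bulk libraries fewer cells of a type cannot be told apart from less RNA per cell.

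The second comparison asked how KO slices differed from Het slices after 24 h, in females, in males and averaged over both. These 3 contrasts share their libraries, and the control genotype differs from that at 4 h. All 6 members had an averaged log2 fold change above 0, largest for Arc and Npas4, and 0 of 6 passed the test in edgeR (0% of 16013 genes called) or DESeq2. At an unadjusted edgeR p under 0.05 there was 1 member, Arc, in the averaged contrast and in females, and 0 in males. Of all 16013 genes, 1060 reached that level in the averaged contrast, 657 in females and 1100 in males.

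Arc had 58.8, 79.5, 18.7 and 37.5 CPM in KO female libraries 1 to 4, against 24.3, 21.3 and 23.8 CPM in Het female libraries 1 to 3. In males it had 35.01, 65.1, 39.6 and 23.5 CPM in KO libraries 1 to 4, against 22.2, 22.4 and 37.9 CPM in Het libraries 1 to 3. The Het females lay within a narrow band and 3 of 4 KO females above it, but KO female 3 was below all of them, and in males KO 4 and KO 1 overlapped the Het range. The means were 48.6 ± 26.3 CPM in KO females (SD, n = 4) and 23.1 ± 1.62 CPM in Het females (n = 3), and 40.8 ± 17.5 CPM in KO males (n = 4) and 27.5 ± 8.99 CPM in Het males (n = 3). Averaged over sexes, Arc had a log2 fold change of 0.83 ± 0.27 (edgeR adjusted p = 0.738). It was 1.07 ± 0.38 in females (adjusted p = 1.00) and 0.60 ± 0.39 in males (0.787), where it was 0.29 without KO male 2. The exact permutation test within sexes gave p = 0.0596. Without KO female 2, the library against its sex label and the highest of all for Arc, the female fold change was 0.73 and the averaged permutation p was 0.113. The permutation p was 0.035 without the 3 libraries rich in Ttr, 0.0114 without KO female 3, 0.0438 without Het male 3 and 0.0329 without KO male 4. The edgeR adjusted p passed the threshold in none of these subsets. It did so for Arc and Npas4 when no filter on low counts was used, in a fit that took each gene's spread from a trend with abundance over all genes.

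Npas4 had 219, 129, 46.9 and 115 CPM in KO female libraries 1 to 4, against 37.7, 93.8 and 79.3 CPM in Het female libraries 1 to 3. In males it had 91.0, 126, 94.6 and 46.2 CPM in KO libraries 1 to 4, against 45.5, 32.4 and 157 CPM in Het libraries 1 to 3. The groups overlapped in both sexes, and Het male 3 exceeded every KO male. The means were 127 ± 70.6 CPM in KO females (SD, n = 4) and 70.3 ± 29.1 CPM in Het females (n = 3), and 89.4 ± 32.8 CPM in KO males (n = 4) and 78.3 ± 68.6 CPM in Het males (n = 3). The averaged log2 fold change of 0.56 ± 0.36 did not pass the test (edgeR adjusted p = 0.822), and the exact permutation test gave p = 0.2. It was 0.87 ± 0.51 in females and 0.24 ± 0.51 in males. Leaving out 1 library at a time gave averaged values from 0.36 without KO female 1 to 1.04 without Het male 3, where the permutation p was 0.0438, and no edgeR adjusted p passed. The female value was 0.47 without KO female 1 and 0.56 without Het female 1. The male value was -0.14 without Het male 2, -0.014 without Het male 1 and 1.22 without Het male 3.

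**Figure D3:**
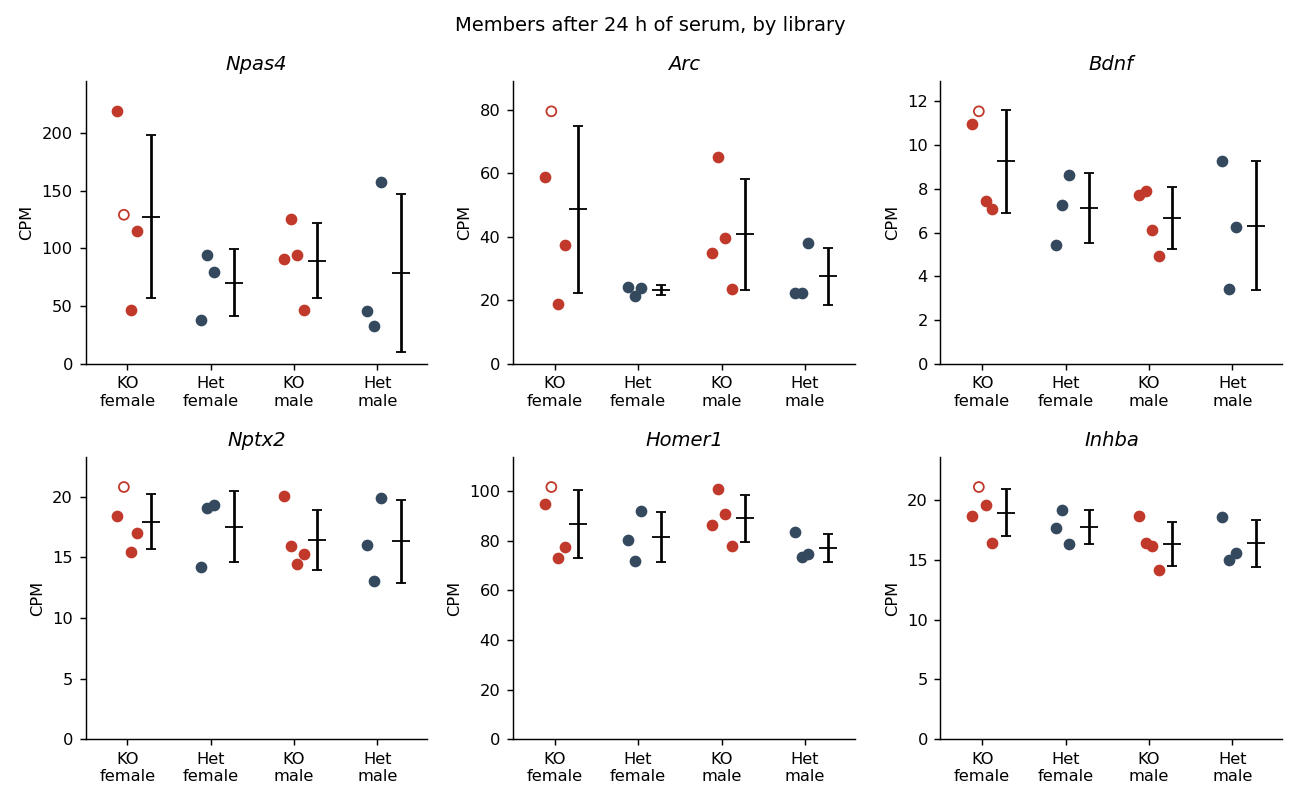
CPM (vertical axes, from 0) of each gene in the 14 libraries after 24 h of serum, with KO (red) left of Het (dark) for females and for males. Each point is a library, the open point is the library labelled KO female 2, and black bars give the mean ± SD. KO points spread over the Het range in every panel, and for Arc the 3 Het females lie between 21.3 and 24.3 CPM.

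The other members were nearer to the Het level. Bdnf had 7.06 to 11.5 CPM in KO and 5.44 to 8.64 CPM in Het females, and 4.92 to 7.90 CPM in KO and 3.42 to 9.29 CPM in Het males. Homer1 had 73.0 to 102 CPM in KO and 72.0 to 92.0 CPM in Het females, and 78.0 to 101 CPM in KO and 73.4 to 83.3 CPM in Het males. Both ranges overlapped in both sexes, the averaged log2 fold changes being 0.26 ± 0.20 for Bdnf and 0.17 ± 0.08 for Homer1 (edgeR adjusted p = 0.853 and 0.768). The Bdnf value ranged from 0.091 without Het male 2 to 0.46 without Het male 1. Nptx2 averaged 17.2 ± 2.35 CPM in the 8 KO and 16.9 ± 2.91 CPM in the 6 Het libraries, and Inhba 17.6 ± 2.25 CPM in KO and 17.03 ± 1.69 CPM in Het libraries (SD). Their log2 fold changes were 0.04 ± 0.11 and 0.06 ± 0.09. No member had groups that did not overlap, in either sex, a pattern found with KO higher in 1.95% of genes in females and 2.8% in males, and with KO lower in 2.9% and 5.02%. That count was also 0 of 6 in females without KO female 2, against 3.5% of genes with KO higher and 4.89% with KO lower. The fit with the replicate number as a block, which did not pair the libraries at 24 h, called 1 gene averaged and 1 in females (0.00624% each) and 0 of 6 members. Males minus females, as a test of each member's contrast, passed the threshold for 0 of 6 (edgeR, adjusted p of 0.977 or more, and 0 of 6 in DESeq2), and 0 had an unadjusted p under 0.05.

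**Figure D4:**
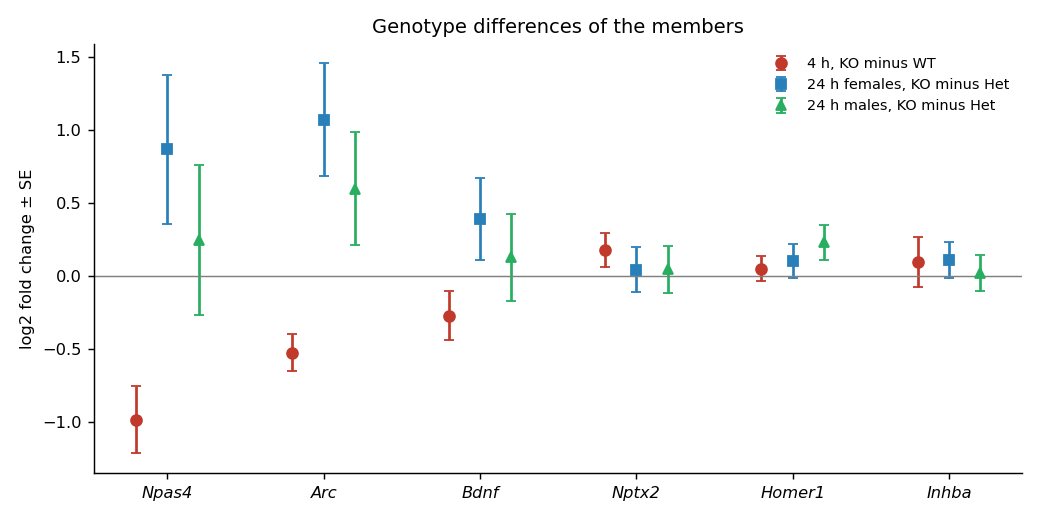
Log2 fold changes ± SE (vertical axis) of the 6 genes for KO minus WT at 4 h (red circles), KO minus Het females at 24 h (blue squares) and KO minus Het males at 24 h (green triangles). Npas4 and Arc lie below 0 at 4 h, at -0.99 and -0.53, and above 0 at 24 h in both sexes. Nptx2, Homer1 and Inhba lie within 0.23 of 0 throughout.

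Npas4 and Arc thus had opposite signs at the 2 times, but the 2 contrasts have different control genotypes and were fitted in separate tables, and the difference between them was not tested. The wider lists had the same sign as the members at 24 h. Of the 13 inducible factors all 13 had an averaged log2 fold change above 0, with a median of 0.43, against 50.01% and 2.9e-05 over all genes tested. The smallest p-values belonged to Junb (0.59 ± 0.16), Nr4a3 (0.89 ± 0.24) and Nr4a1 (0.85 ± 0.25), each with an edgeR adjusted p of 0.738. Of the 26 other activity-induced effectors 25 were above 0, with a median of 0.21, led by Gadd45b (0.67 ± 0.18), the nuclear protein Csrnp1 (0.39 ± 0.13) and Dusp1 (0.40 ± 0.14). The calcium route had 22 of 23 above 0 and a median of 0.09, its smallest p-values being those of Mef2d (0.20 ± 0.06), the NMDA receptor subunit Grin2a (0.35 ± 0.12) and Mef2c (0.31 ± 0.11). The partners had 20 of 28 above 0 and a median of 0.05, led by Shank2 (0.12 ± 0.05), the calcium release channel Itpr1 (0.22 ± 0.09) and the activin receptor Acvr2a (0.12 ± 0.06). None of these genes passed the test in edgeR, with 0 genes called at 24 h. By sex, 12 of the 13 inducible factors were above 0 in females and 10 in males. For the other effectors the counts were 25 in females and 20 in males, for the calcium route 20 and 18, and for the partners 17 and 18. Excitatory neuron markers were above 0 in 9 of 10, with a median of 0.13 and a summed 999.5 to 1182 CPM in KO and 842 to 1167 CPM in Het libraries of both sexes. Choroid plexus markers were above 0 in 6 of 7 tested, with a median of 0.96 and a summed 19.7 to 2768 CPM in KO and 17.7 to 27.2 CPM in Het libraries. Meningeal markers were above 0 in 8 of 10 and pan-neuronal markers in 8 of 10, while astrocyte, microglia, endothelial and mural, and inhibitory and striatal markers were below 0 in 8, 8, 6 and 7 of 10. In females all 10 inhibitory and striatal markers were below 0, at a summed 915 to 1298 CPM in KO and 1124 to 1288 CPM in Het females. The part of these lists in the signs of the members was not tested. Over the 14 libraries Homer1 followed the summed excitatory markers with r = 0.75 (adjusted p = 0.0566) and rho = 0.79 (0.0586), and r was 0.79 without the 2 farthest libraries. Npas4 against the astrocyte markers gave r = -0.62 (adjusted p = 0.352) and rho = -0.67 (0.276), and r was -0.58 without the 2 farthest. Neither permutation p passed after adjustment over 48 relations, which were chosen after the data were seen.

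Compared per kilobase of exon, a scale on which genes can be set beside each other, Npas4 was the most abundant member at 24 h with 22.7 ± 12.8 CPM per kb over the 14 libraries. Arc followed with 11.9 ± 6.16, Homer1 with 7.03 ± 0.86, Nptx2 with 6.73 ± 0.98, Inhba with 2.72 ± 0.31 and Bdnf with 1.19 ± 0.36 CPM per kb (SD, n = 14). The ranges of neighbours overlapped from Npas4 down to Nptx2, while those of Nptx2, Inhba and Bdnf were apart. The order at 4 h was Npas4, Arc, Nptx2, Homer1, Inhba and Bdnf, from 30.2 ± 14.4 to 1.41 ± 0.27 CPM per kb (SD, n = 6), with the tables scaled separately. From the lowest to the highest of the 14 libraries at 24 h the CPM spanned a factor of 6.75 for Npas4, 4.26 for Arc and 3.38 for Bdnf, but 1.59 for Nptx2, 1.49 for Inhba and 1.41 for Homer1.

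The members also varied with each other from library to library at 24 h. Over the 14 libraries all 15 pairs of members had a positive Pearson r of log2(CPM + 1), and 7 had a permutation p past 0.05 after Benjamini-Hochberg adjustment over the 15, against 4 by Spearman's rho. The closest pair was Npas4 and Arc (r = 0.78, adjusted p = 0.0112; rho = 0.75, adjusted p = 0.0199), with r = 0.76 within females and 0.85 within males. Arc and Homer1 followed (r = 0.77, adjusted p = 0.0112; rho = 0.76, adjusted p = 0.0199), with 0.79 within females and 0.75 within males. Bdnf went with Inhba (r = 0.72, adjusted p = 0.0163) and with Nptx2 (0.70, 0.019), and Npas4 with Nptx2 (0.70, 0.019). The remaining pairs past the threshold were Bdnf with Homer1 (0.63, 0.0354) and Bdnf with Npas4 (0.62, 0.038). Inhba was the member least tied to Npas4 and Arc, with r = 0.21 for both. The p-values come from 100000 permutations of the library labels. The part of library depth in these relations was not tested. KO female 3, the library with the most counts (18051300), was the lowest for Arc at 18.7 CPM. For Inhba it had 19.6 CPM, above the mean of 17.4 CPM over the 14 libraries.

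Fewer pairs passed when libraries were left out. Without the library labelled KO female 2, which was the highest of all for Arc, Bdnf, Nptx2, Homer1 and Inhba, 1 of 15 pairs passed, Npas4 and Arc, with r = 0.80 and an adjusted p of 0.0213. In those 13 libraries r was 0.70 for Arc and Homer1 and 0.64 for Bdnf and Inhba (adjusted p = 0.0543 each). The same pair was the 1 that passed when the 2 libraries farthest from the median of the first member were left out, with r = 0.78 and an adjusted p of 0.0457, while r was 0.57 for Arc and Homer1 and 0.58 for Bdnf and Inhba (adjusted p = 0.276 each). No pair passed within females or within males, where n is 7. With each group centred on its own mean r was 0.75 for Npas4 and Arc, and 6 of 15 pairs passed. At 4 h, over 6 libraries of both genotypes, not centred and untested, r was 0.58 for Npas4 and Arc and 0.89 for Arc and Bdnf.

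**Figure D5:**
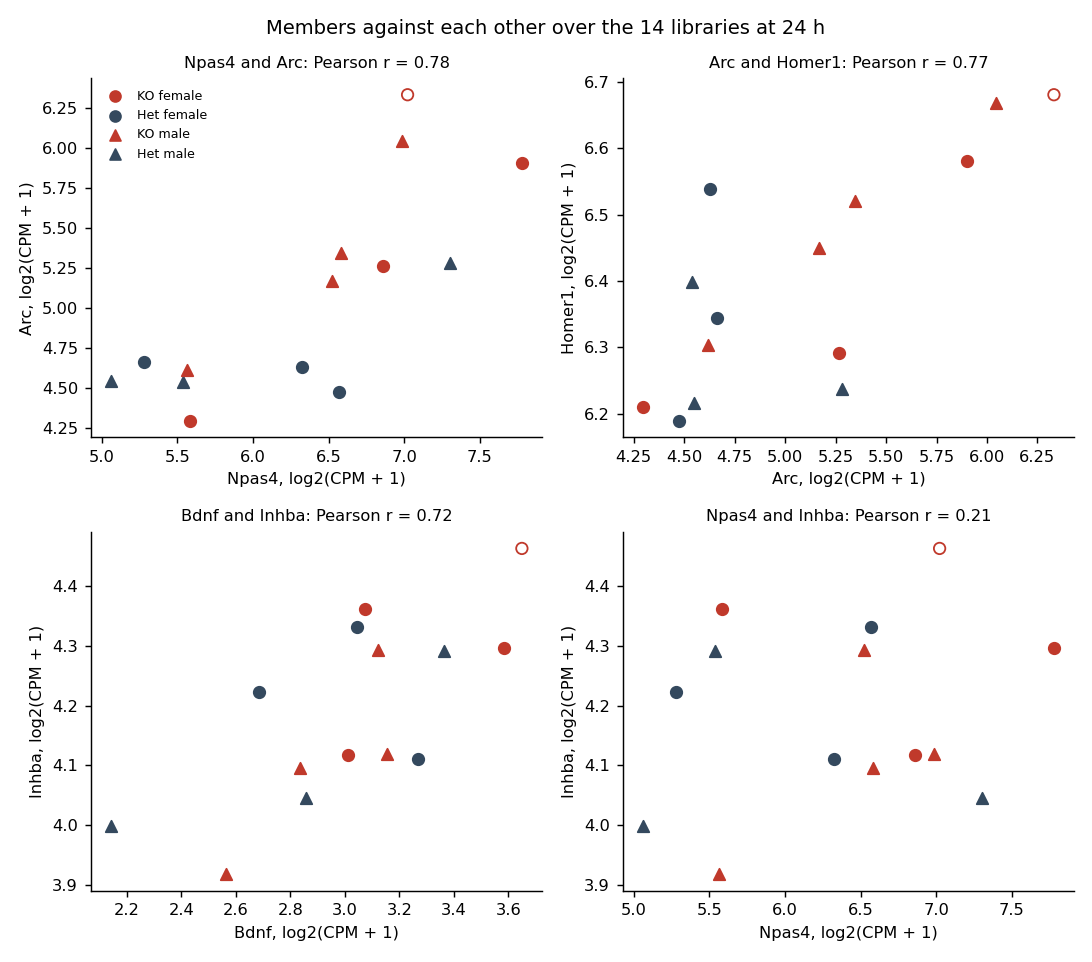
Each panel sets log2(CPM + 1) of 1 gene against that of another over the 14 libraries at 24 h, with KO in red, Het in dark, females as circles, males as triangles and the library labelled KO female 2 as an open circle. Npas4 and Arc (r = 0.78), Arc and Homer1 (0.77) and Bdnf and Inhba (0.72) run upward together, whereas Npas4 and Inhba (0.21) scatter.

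The genes whose 24 h pattern was most like that of a member were sought by Pearson r of log2(CPM + 1) among 13897 genes with a mean of at least 2 CPM. For Npas4 they were Fosb (r = 0.95), a further AP-1 subunit, Klf4 (0.94), a Krüppel-like transcription factor, and Fos (0.93), and these 3 also had r of 0.99, 0.92 and 0.96 with Npas4 over the 6 libraries at 4 h. All r at 4 h pool KO and WT libraries without centring on genotype, so a genotype difference shared by 2 genes is part of them. For Arc they included Crem (0.97), a CREB family member, and the taurine transporter Slc6a6 (0.94), whose r at 4 h was 0.27 for Crem and -0.50 for Slc6a6. For Bdnf they were the prostaglandin receptor Ptger4 (0.90), the nuclear receptor Rora (0.88) and Klf6 (0.87), with r at 4 h of 0.88 for Ptger4, -0.72 for Rora and -0.14 for Klf6. For Homer1 they were Psd3 (0.93), Btaf1 (0.93) and Gramd1b (0.93), with 0.37, 0.46 and 0.26 at 4 h. For Nptx2 they were Plpbp (0.81), Ccdc82 (0.78) and Rtl4 (0.78), with 0.19, -0.33 and 0.44 at 4 h. For Inhba they were S100a6 (0.88), the potassium channel subunit Kcnq3 (0.85) and Otud1 (0.83), with 0.24, 0.54 and -0.24 at 4 h. Since these were picked for their likeness out of 13897 genes over 14 libraries, the values are a description.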

How the data were processed

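RNA was measured in bulk in 20 libraries of mouse forebrain slices, 6 at 4 h and 14 at 24 h. Per the submitters' processing notes the build was GRCm38, and the tools listed, with no role stated, were HTSeq, TopHat2 and DESeq2 1.38.3. The 4 h table holds a signal: per the values in the deposited table, each is a read count divided by 1 size factor per library. Division by those steps gave whole reads for 100% of values within 0.05. The 24 h table holds raw counts as deposited. At 4 h limma 3.58.1 was run on log2(value + 1) of 15181 genes with a mean of at least 10, and the count test of edgeR 4.0.16 on the recovered reads called 7 genes. At 24 h edgeR's quasi-likelihood test with TMM was run on 16013 genes kept by its filter, with 1 mean per genotype and sex. DESeq2 1.42.0, R 4.3.3, Python 3.11.15 and scipy 1.17.1 were also used. P-values were adjusted by Benjamini-Hochberg over all genes tested, with a threshold of 0.05. The scripts were tested on simulated data.

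Replicate numbers at 4 h were taken as pairing the libraries, because each same-numbered pair correlated above 0.1, while different numbers gave -0.218 to 0.0638. No label states a pairing, so the block was chosen from the same values that the blocked fits tested. With deviations taken from a mean of 3 libraries, a higher correlation of some pairs lowers that of others. At 24 h same-numbered libraries gave -0.161 to 0.0914 and were not taken as pairs. The 6 members were named in every comparison, with the genes of each other list past the threshold or otherwise the 3 with the smallest p, and the 3 genes most like each member, of which 1 is not reported here. The members and lists were chosen with earlier results of these data known. Alternatives were other scalings, filters, pseudocounts, tools, a replicate block and each library left out. Exact permutation tests were two-sided. Symbols were matched for 19673 of 19722 identifiers at 4 h and 51633 of 51912 at 24 h. Depth limits the precision of low genes, and intervals cover the spread between libraries.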

Additional observations from a re-analysis of the deposited data

How the results depend on the processing

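The number of genes called at 4 h was 161 with DESeq2, 28 with a robust spread and 1 without the libraries holding Xist reads. With the replicate block it was 38, with edgeR 36 and DESeq2 60, and 35, 579 and 11 without both libraries numbered 1, 2 and 3. It was 1 to 211 when 1 library was left out. Npas4 at 4 h passed the threshold under every blocked fit, at -0.99 with limma, -0.997 with edgeR and -0.99 with DESeq2, and at -0.97, -0.98 and -1.01 without each number. Arc at 4 h passed with DESeq2, at -0.53. At 24 h DESeq2 called 5 genes averaged and 1 each in females, males and their difference. Without a filter on low counts the same 4 contrasts gave 263, 180, 220 and 165. The prior degrees of freedom of that fit were infinite, so each gene's spread was set by a trend with abundance over all genes. There Npas4 passed at 0.55 averaged, 0.86 in females and -0.62 for the difference, and Arc at 0.83, 1.06 and 0.59 averaged, in females and in males. With the newer quasi-dispersion and no filter, 5 genes averaged and 1 in males were called and no member. The replicate block at 24 h called 1 gene averaged and 1 in females and changed no member's call. It gave Arc 0.93 with an adjusted p of 0.375. Signs of fold changes turned in the following settings where values were near 0. With 1 library left out they also turned for larger values, as for Npas4 in males and in the difference between the sexes. Homer1 was -0.046 and Inhba -0.019 in the 4 h block without number 2. Nptx2 was -0.037 in females without the library against its sex label, and -0.015 for the difference without the Ttr-rich libraries. In permutation tests Nptx2 was -0.0091 averaged and -0.036 in females without the library against its sex label, and Inhba in males 0.016 with TMM and 0.017 with RLE scaling. Arc kept its sign, at 0.85 averaged without the Ttr-rich libraries, where only its permutation p crossed 0.05. Of the 15 relations, 1 passed without the 2 farthest libraries and 1 without the library against its sex label. There r was -0.040 and -0.094 for Arc and Inhba, and -0.033 for Nptx2 and Homer1 without the 2 farthest.

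With 1 library left out, log2 fold changes at 4 h ran from -1.29 to -0.71 for Npas4, -0.054 to 0.10 for Homer1 and -0.13 to 0.25 for Inhba, in the fit and in the permutation test. At 24 h 0 to 2 genes were called averaged and 0 in the other contrasts. Nptx2 ran from -0.030 to 0.11 averaged, -0.094 to 0.12 in females, -0.099 to 0.19 in males and -0.14 to 0.15 for the difference. Npas4 ran from -0.14 to 1.22 in males and -1.01 to 0.35 for the difference, Bdnf from -0.21 to 0.53 and -0.60 to 0.14, and Inhba from -0.056 to 0.12 and -0.16 to 0.017. In the permutation tests Npas4 ran from 0.37 to 0.93 and Arc from 0.54 to 0.87 averaged, Nptx2 from -0.044 to 0.098 averaged, -0.10 to 0.11 in females and -0.12 to 0.16 in males, Homer1 from -0.00072 to 0.17 in females, and in males Npas4 from -0.0093 to 1.11, Bdnf from -0.19 to 0.42 and Inhba from -0.067 to 0.085. Between 1 and 8 relations passed, and r for Arc and Inhba ran from -0.094 to 0.36. Except for the fit without a filter, the cause was not tested.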
